A study of Mus musculus with 12 samples.

Results

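The genes described here are the 10 core genes of the inflammasome and of pyroptosis that were measured in the brain after stroke, out of 49315 genes in the deposited table. They were listed by symbol, with earlier results of these data known: *Il1b*, *Mefv*, *Nlrp3*, *Nlrc4*, *Aim2*, *Casp1*, *Casp4*, *Pycard*, *Gsdmd* and *Il18*. Bulk RNA-sequencing covered the brains of 12 male mice at 14 d post-stroke, 6 in each group. All recipients were CD45.1 Pep Boy mice of 8 to 12 weeks with wild-type *Tet2* that had been irradiated behind a head shield and given bone marrow, and 8 to 10 weeks later the right middle cerebral artery was occluded for 30 min. The graft was a mixture, 90% of it from CD45.1 donors with intact *Tet2* in either group, and the groups differ only in the remaining 10%, which was CD45.2 *Tet2*-/- marrow in the *Tet2*-KO group and CD45.2 *Tet2*+/+ marrow in the WT group. The mutation is therefore in a minority of the graft, in every blood lineage that it forms, and the resident cells of the brain carry intact *Tet2*. The treatment entry of the labels names control cells for both groups, so the titles and genotype entries were used to assign the mice.

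The inflammasome is a protein platform that assembles in the cytosol of macrophages, microglia and other cells when a sensor meets a microbial or damage signal. The sensors recruit an adaptor, the adaptor recruits caspase-1, and caspase-1 cuts the precursors of interleukin-1β and interleukin-18 into their active forms and cuts gasdermin D, whose fragment opens pores in the membrane and can end in the lytic cell death called pyroptosis. In most myeloid cells the sensor NLRP3 and pro-interleukin-1β are made in quantity only after an inflammatory signal, whereas pro-interleukin-18 is made at rest, and the pathway is a known source of interleukin-1β in the injured brain.

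Each library held between 12000261 and 21049763 counted reads. *Tet2* itself lay at 126–147 CPM (read counts relative to library size, scaled between libraries with the TMM method) in the WT group and at 117–137 CPM in the *Tet2*-KO group. Those reads are counted over all exons and come from brain tissue in which few cells derive from the mutant donors, so they do not check the labels. Neuronal, astrocyte and oligodendrocyte markers were present in every library, as the label brain requires. One mouse of each group stood apart in the genes of interest. *Tet2*-KO mouse 5 had the highest level of its group for 10 of the 10 genes and WT mouse 2 for 7 of 10 in its own group, while *Tet2*-KO mouse 1 had the lowest level of its group for 10 of 10. The results below are given with and without mouse 5 where this matters.

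The fitted level of all 10 genes was lower in the *Tet2*-KO group, against 47.7% of all 20290 genes tested, with a median log2 fold change of -0.90 against 0.01 over all tested genes. Of the 10, 2 passed the adjusted threshold of 0.05 in edgeR's quasi-likelihood test over all genes, namely *Il1b* and *Mefv*, where 0.0246% of genes were called lower in *Tet2*-KO mice. At an unadjusted p under 0.05, 8 of the 10 were lower and 0 were higher, against 12.2% and 10.8% of all tested genes. In *Il1b*, *Mefv* and *Nlrp3* the groups did not overlap, the *Tet2*-KO mice all being lower, which was the case for 0.641% of tested genes. The other 2, *Aim2* and *Il18*, did not reach that level. All 10 genes passed the filter on low counts, which a gene can pass through the reads of a single group. *Il1b*, *Mefv* and *Nlrc4* went down to 7, 1 and 8 reads in the *Tet2*-KO group. In bulk tissue, fewer cells of a type and less RNA per cell cannot be told apart, and no protein or cleavage of a protein was measured in these files.

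**Figure D1:**
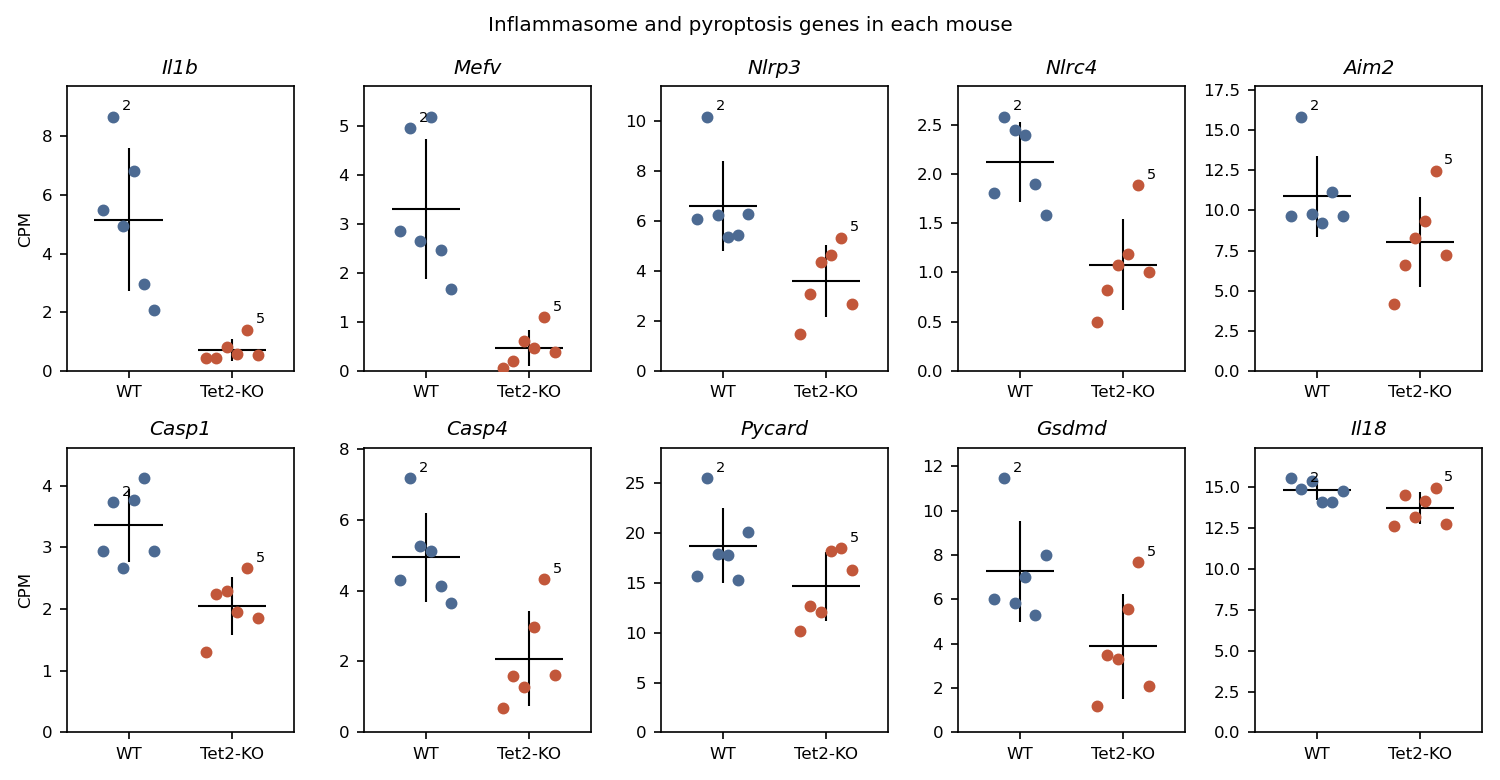
CPM (vertical axis, linear, from 0) of the 10 genes in the 6 WT and 6 *Tet2*-KO mice, 1 point per mouse, with the mean (horizontal line) and SD (vertical line). The number 2 marks WT mouse 2 and the number 5 marks *Tet2*-KO mouse 5, which is the highest point of its group in every panel. In the panels of *Il1b*, *Mefv* and *Nlrp3* the groups do not overlap, and in that of *Il18* the means differ least, at 14.8 and 13.7 CPM.

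*Il1b* (ENSMUSG00000027398, minus strand of chr2:129364570-129371139, mm10) encodes the precursor of interleukin-1β, the main cytokine that caspase-1 releases. In the 6 WT mice it lay at 5.49, 8.68, 4.95, 6.81, 2.97 and 2.06 CPM, from 26 to 121 reads per mouse. In the 6 *Tet2*-KO mice it lay at 0.434, 0.437, 0.807, 0.566, 1.41 and 0.539 CPM, from 7 to 18 reads. The highest *Tet2*-KO mouse, mouse 5, stood below the lowest WT mouse, and 5 of the 6 *Tet2*-KO mice lay under 1 CPM. The means were 5.16 ± 2.43 and 0.699 ± 0.375 CPM (SD, n = 6 per group), and the fitted level was 7.67-fold lower. The log2 fold change was -2.94 with a standard error of 0.38 (edgeR adjusted p = 0.0364), and no other of the 20290 genes had a smaller p, so *Il1b* ranked 1.

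*Mefv* (ENSMUSG00000022534, minus strand of chr16:3707218-3718097) encodes pyrin, a sensor of the effects of bacterial toxins that is expressed mainly by granulocytes and monocytes. The WT mice lay at 2.86, 4.95, 2.66, 5.19, 2.47 and 1.67 CPM. The *Tet2*-KO mice lay at 0.0620, 0.194, 0.605, 0.463, 1.10 and 0.385 CPM, which in mouse 1 was 1 read and in mouse 5 was 14 reads. As with *Il1b*, the ranges of the groups did not touch, and *Tet2*-KO mouse 5 came nearest to the WT range. The log2 fold change was -2.90 with a standard error of 0.42 (edgeR adjusted p = 0.0417, rank 4 of all genes), from a mean of 3.30 ± 1.43 CPM to one of 0.468 ± 0.364 CPM (SD, n = 6 per group).

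Both calls stood close to the threshold. In the 12 fits that each left out 1 mouse, the log2 fold change of *Il1b* stayed between -3.22 and -2.73 and its unadjusted edgeR p between 1.7e-07 and 2.1e-05, but its adjusted p rose to at most 0.189 and it was called in 4 of the 12, those without WT mouse 2, 5 or 6 or without *Tet2*-KO mouse 5. *Mefv* stayed between -3.28 and -2.67 and was called in 2 of the 12 fits, without WT mouse 6 and without *Tet2*-KO mouse 5. Between 0 and 2257 genes were called in those fits over all genes.

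The starts of these 2 genes are shown beside that of *Il18*, the other cytokine precursor of the pathway, which did not pass the test. The 250 bases before the RefSeq start (build GRCm38.p6, 5′ to 3′ on the strand of the gene) lie at chr2:129371140-129371389 for *Il1b* on the minus strand, at chr16:3718125-3718374 for *Mefv* on the minus strand and at chr9:50554450-50554699 for *Il18* on the plus strand. Capitals mark matches on either strand to one of 6 motifs that were searched, AP-1 (TGANTCA), kappa B (GGGA followed after 4 bases by CC), PU.1 (GAGGAAGT), C/EBP (TTNNGNAA), the interferon-stimulated response element ISRE (GAAA, 2 further bases and GAAA) and the TATA box (TATAAA).
Il1b: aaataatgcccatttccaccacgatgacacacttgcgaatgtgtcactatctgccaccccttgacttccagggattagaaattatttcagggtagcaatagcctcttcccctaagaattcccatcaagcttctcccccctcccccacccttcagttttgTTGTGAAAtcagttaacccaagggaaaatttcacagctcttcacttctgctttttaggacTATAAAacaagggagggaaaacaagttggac
Mefv: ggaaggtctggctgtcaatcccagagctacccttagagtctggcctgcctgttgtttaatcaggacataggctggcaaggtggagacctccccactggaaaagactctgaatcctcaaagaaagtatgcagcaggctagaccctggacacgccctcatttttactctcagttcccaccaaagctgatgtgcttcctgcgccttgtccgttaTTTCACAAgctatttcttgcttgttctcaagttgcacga
Il18: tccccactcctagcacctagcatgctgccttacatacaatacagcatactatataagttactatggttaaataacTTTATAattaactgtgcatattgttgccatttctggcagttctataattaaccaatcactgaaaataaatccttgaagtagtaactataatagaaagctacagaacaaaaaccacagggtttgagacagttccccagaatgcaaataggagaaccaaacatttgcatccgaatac

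In the *Il1b* window a C/EBP match began 91 bases before the start and a TATA match 31 bases before it, both on the strand of the gene. The *Mefv* window held a C/EBP match, on the opposite strand, from base 39 before the start. C/EBP matches were also in the windows of *Nlrp3*, *Nlrc4*, *Aim2*, *Casp4* and *Pycard*, 7 of the 9 genes with a window in all. The *Il18* and *Casp1* windows held no match to those letters, and the TATA letters of *Il18* lay on the opposite strand, 175 bases before the start. Of 32841 RefSeq windows of this length, 36.9% held the C/EBP letters, 12.4% the TATA letters, 17.6% the kappa B letters, 6.75% those of AP-1, 2.98% those of the ISRE and 2.44% those of PU.1, so a single match is common and says nothing of whether a factor binds. A window was found for 9 of the 10 genes, and *Gsdmd* has none. Of the others, *Casp4* carried the kappa B match GGGATTTCCC, which began 92 and 103 bases before its 2 RefSeq starts, one of the 2 *Nlrp3* windows carried GGGAACCCCC, and *Aim2* and *Pycard* carried PU.1 matches. For 9 of the 11 windows the 30 bases after the start were found in a GENCODE transcript of the gene. The RefSeq starts of *Mefv* and *Il18* lie outside the gene spans given here. Distances for these genes therefore hold for the RefSeq start only.

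The sensors other than pyrin differed less in level between the groups. *Nlrp3* (ENSMUSG00000032691, plus strand of chr11:59541568-59566956) encodes the sensor of potassium efflux, crystals and other cell damage that is studied most in stroke. It lay at 6.09, 10.2, 6.25, 5.38, 5.44 and 6.27 CPM in the WT mice and at 1.49, 3.06, 4.37, 4.63, 5.33 and 2.69 CPM in the *Tet2*-KO mice. No mouse overlapped, but *Tet2*-KO mouse 5 stood just below the lowest WT mouse, and WT mouse 2 lay far above the others. Between the groups *Nlrp3* differed by a log2 fold change of -0.88 with a standard error of 0.25 (edgeR adjusted p = 0.121), which did not pass over all genes.

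*Nlrc4* (ENSMUSG00000039193, minus strand of chr17:74425438-74459142) encodes the sensor that works with the NAIP proteins on bacterial flagellin and secretion needles. It ranged from 1.59 to 2.58 CPM in WT mice, with a median of 2.15, and from 0.496 to 1.88 CPM in *Tet2*-KO mice, with a median of 1.04. All *Tet2*-KO mice except mouse 5 were below the WT range. Its log2 fold change was -1.01 with a standard error of 0.24 (edgeR adjusted p = 0.110). *Aim2* (ENSMUSG00000037860, plus strand of chr1:173350879-173466040), the sensor of DNA in the cytosol, ranged from 9.20 to 15.9 CPM in WT mice (median 9.72) and from 4.15 to 12.5 CPM in *Tet2*-KO mice (median 7.75). Mice 4 and 5 of the *Tet2*-KO group lay within the WT range, and the log2 fold change of -0.45 with a standard error of 0.22 did not pass (edgeR adjusted p = 0.238).

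*Pycard* (ENSMUSG00000030793, minus strand of chr7:127989708-127993867) encodes ASC, the adaptor that joins most sensors to caspase-1. It ranged from 15.2 to 25.5 CPM in WT mice (median 17.9) and from 10.2 to 18.5 CPM in *Tet2*-KO mice (median 14.5), and 3 of 6 *Tet2*-KO mice lay within the WT range. The log2 fold change was -0.36 with a standard error of 0.16 (edgeR adjusted p = 0.209). Of its exon bases, 12.8% are shared with a gene on the opposite strand, *Gm45205*, and the strand setting of the counting is not given in the sources used here, so some of its reads could belong to that gene.

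The caspase genes *Casp1* and *Casp4* are neighbours on chromosome 9, 1562 bases apart and on the same strand. *Casp1* (ENSMUSG00000025888, plus strand of chr9:5298517-5307265) encodes the protease of the canonical inflammasome. It ranged from 2.66 to 4.12 CPM in WT mice (median 3.33) and from 1.30 to 2.67 CPM in *Tet2*-KO mice (median 2.10), with mouse 5 alone in the WT range. Its log2 fold change was -0.72 with a standard error of 0.17 (edgeR adjusted p = 0.110). *Casp4* (ENSMUSG00000033538, plus strand of chr9:5308828-5336783), also known as caspase-11 in mice, encodes the protease that binds lipopolysaccharide directly and cuts gasdermin D. It ranged from 3.65 to 7.17 CPM in WT mice (median 4.70) and from 0.682 to 4.31 CPM in *Tet2*-KO mice (median 1.61), and again mouse 5 was the one *Tet2*-KO mouse within the WT range. Its log2 fold change was -1.27 with a standard error of 0.33 (edgeR adjusted p = 0.114).

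*Gsdmd* (ENSMUSG00000022575, plus strand of chr15:75862327-75867408) encodes gasdermin D, the protein of the pore. In WT mice it lay at 6.02, 11.5, 5.82, 7.0, 5.28 and 8.01 CPM. In *Tet2*-KO mice it lay at 1.18, 3.50, 3.30, 5.55, 7.69 and 2.08 CPM. The spread within the *Tet2*-KO group was wide, from mouse 1 to mouse 5, and mice 4 and 5 lay in the WT range. Between the groups the log2 fold change was -0.91 with a standard error of 0.37 (edgeR adjusted p = 0.174).

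*Il18* (ENSMUSG00000039217, plus strand of chr9:50554827-50581840), the precursor of interleukin-18, was the member with the smallest difference. It ranged from 14.1 to 15.6 CPM in WT mice (median 14.8) and from 12.6 to 15.0 CPM in *Tet2*-KO mice (median 13.7), and 3 of 6 *Tet2*-KO mice lay within the WT range. Its log2 fold change was -0.11 with a standard error of 0.065 (edgeR adjusted p = 0.323).

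The calls for the middle group of members depended on the test and on mouse 5. The DESeq2 Wald test, which the study used, called 6 of the 10 genes lower (*Il1b*, *Mefv*, *Nlrp3*, *Nlrc4*, *Casp1* and *Casp4*), against 3.38% of all genes it tested. limma-voom with quality weights called those and *Gsdmd*, 7 in all, against 6.38%. edgeR without *Tet2*-KO mouse 5 called the same 7, against 7.3%, with log2 fold changes from -3.28 for *Mefv* to -0.79 for *Casp1*. Without both that mouse and WT mouse 2, it called 6, against 4.94%. *Aim2*, *Pycard* and *Il18* were called by none of these 4 fits.

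**Figure D2:**
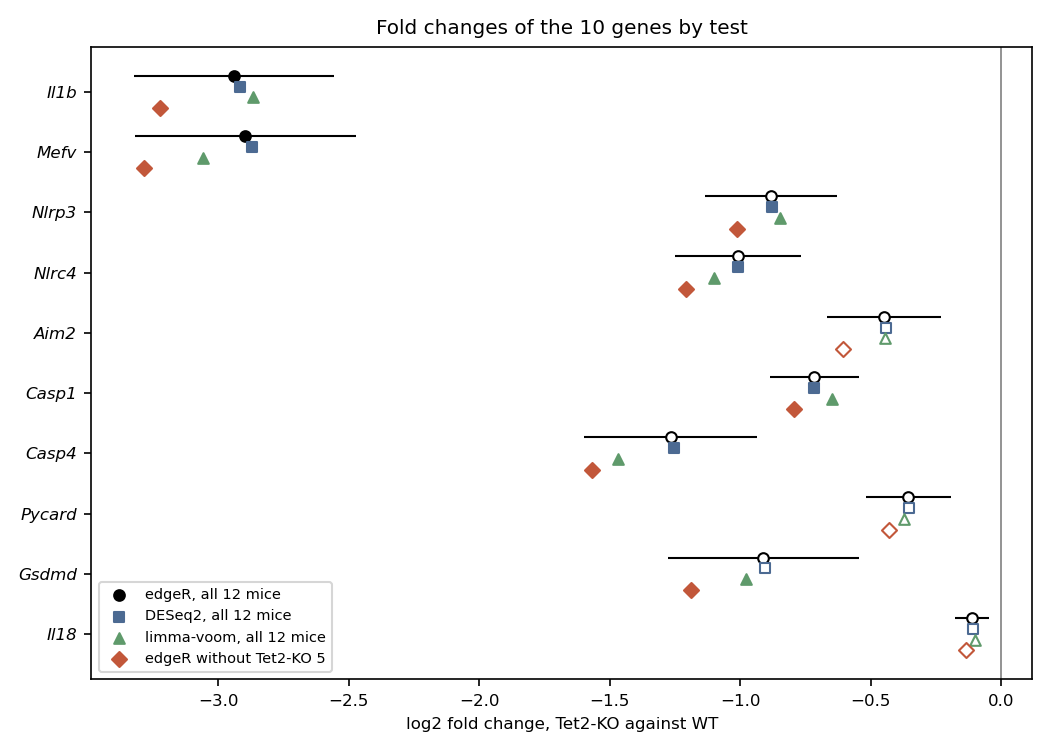
Log2 fold change of each of the 10 genes (horizontal axis, *Tet2*-KO against WT, negative where lower in *Tet2*-KO) from 3 tests over all mice and from edgeR without *Tet2*-KO mouse 5. Filled symbols passed an adjusted p of 0.05 over all genes and open ones did not, and the line is the standard error of the edgeR fit over all 12 mice. *Il1b* and *Mefv* lie farthest to the left, from -3.28 to -2.87, and are filled in each fit, and the symbols of *Aim2*, *Pycard* and *Il18* are all open.

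Levels were compared between genes per kilobase of exon. In the WT group *Il18* stood highest, at 14.4 ± 0.594 CPM per kb (SD, n = 6), and *Pycard* next at 4.93 ± 0.990, each apart from its neighbour by more than the summed SDs. *Aim2* (3.11 ± 0.721), *Gsdmd* (3.06 ± 0.959), *Il1b* (2.71 ± 1.28) and *Casp1* (2.24 ± 0.393 CPM per kb) followed with overlapping spreads, then *Nlrp3*, *Casp4* and *Mefv* between 1.63 and 1.01 CPM per kb, again overlapping. *Nlrc4* was lowest at 0.441 ± 0.0846 CPM per kb, apart from *Mefv* (1.01 ± 0.440) by more than the summed SDs. In the *Tet2*-KO group the first 4 places were held by the same genes, and *Il1b*, at 0.367 ± 0.197 CPM per kb, stood below *Casp4* (0.561 ± 0.359) instead of above *Casp1*. *Mefv* was last at 0.144 ± 0.112 CPM per kb, next to *Nlrc4* at 0.224 ± 0.0961. These places were not resolved, since the spreads of *Il1b* and *Casp4*, of *Mefv* and *Nlrc4*, and of *Gsdmd* (1.63 ± 1.00) and *Casp1* (1.37 ± 0.311) overlapped.

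Ratios within a library ask whether the members differed by unequal amounts. They were taken as the log2 ratio of CPM + 0.1 of a pair of genes in each mouse and compared by exact two-sided permutation tests, whose smallest possible p with 6 against 6 mice is 0.00216, with adjustment over the 9 ratios tested. The 2 cytokine genes separated. *Il18* lay at 14.1 to 15.6 CPM in WT mice and at 12.6 to 15.0 CPM in *Tet2*-KO mice. Their ratio therefore largely repeats the comparison of *Il1b*, whose groups did not overlap, and is no separate support. The *Il1b* to *Il18* ratio was -1.65 ± 0.74 in WT mice and -4.21 ± 0.53 in *Tet2*-KO mice (SD of log2 ratios, n = 6 per group; exact permutation p = 0.00216, adjusted 0.00649), and no mouse overlapped. With a pseudocount of 0.5 CPM the difference was -2.05 instead of -2.56, also with no overlap. Among the sensors, *Mefv* relative to *Nlrp3* went from -1.05 ± 0.58 to -2.86 ± 0.48 with no overlap (exact permutation p = 0.00216, adjusted 0.00649). The size of that difference depended on the pseudocount, being -1.81 with 0.1 CPM and -1.12 with 0.5 CPM, with no overlap at either. *Mefv* in *Tet2*-KO mouse 1 was at 0.0620 CPM, under both pseudocounts. *Nlrp3* relative to *Aim2* went from -0.72 ± 0.16 to -1.17 ± 0.21 (exact permutation p = 0.00649, adjusted 0.0146), and in 4 of 6 *Tet2*-KO mice it was lower than in any WT mouse. Without both WT mouse 2 and *Tet2*-KO mouse 5 this difference was -0.42 and did not pass (adjusted exact permutation p = 0.0536).

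The ratios among the effector genes did not pass. *Casp1* relative to *Casp4* differed by 0.69 (exact permutation p = 0.0563, adjusted 0.101), where *Tet2*-KO mice 4 and 5 lay in the WT range and the other 4 above it. Leaving out *Tet2*-KO mouse 5 brought this difference to 0.86 and past the threshold (adjusted exact permutation p = 0.0468). Leaving out any other single mouse did not. *Gsdmd* relative to *Casp1* differed by -0.37 (exact permutation p = 0.273, adjusted 0.307) and *Pycard* relative to *Casp1* by 0.34 (exact permutation p = 0.113, adjusted 0.169).

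**Figure D3:**
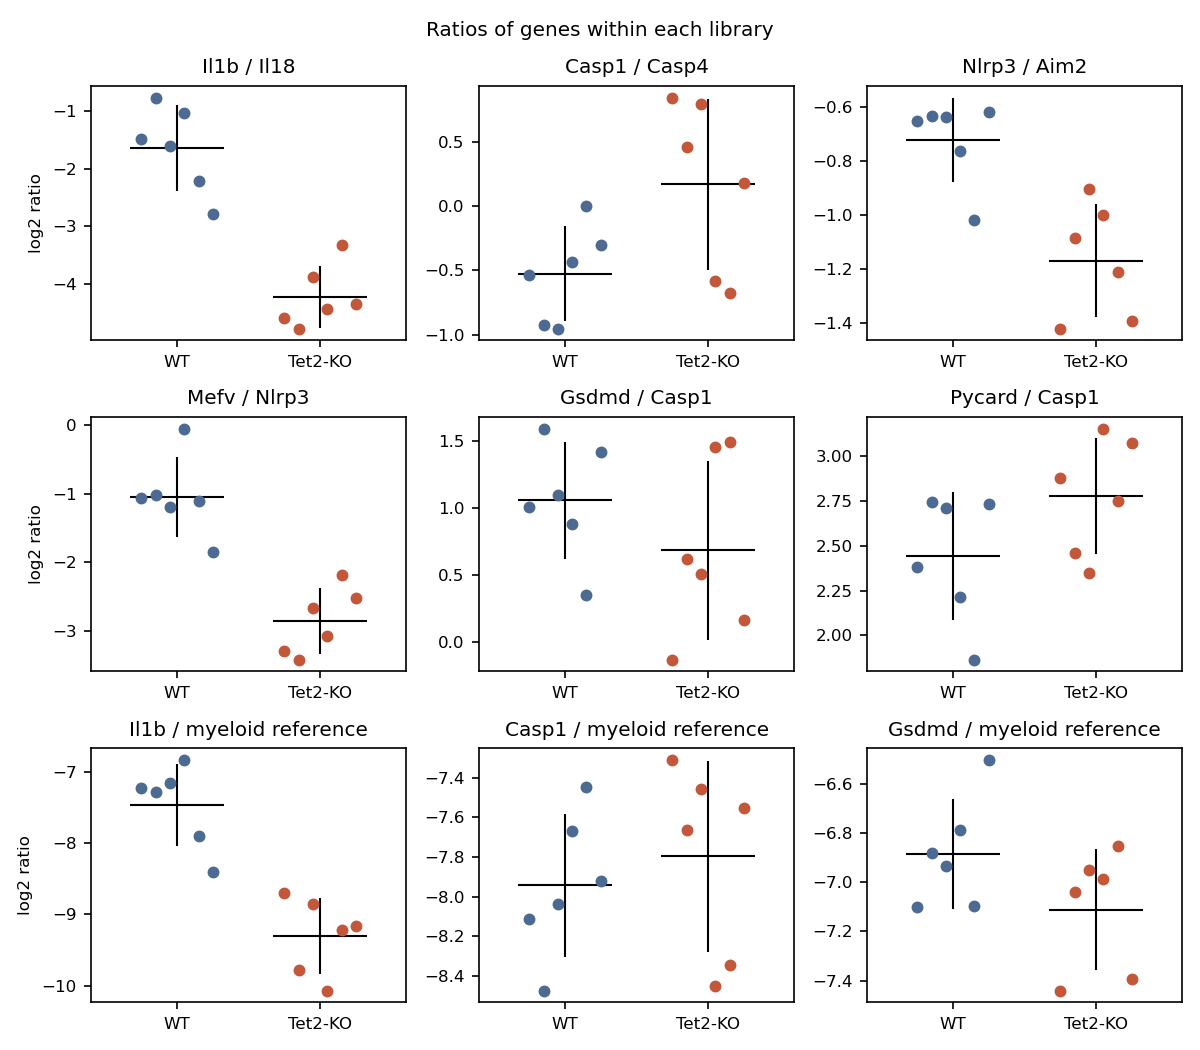
Log2 ratios within each library for the 9 pairs tested, 1 point per mouse, with mean (horizontal line) and SD (vertical line); the vertical axes do not start at 0 and differ between panels. The myeloid reference is the summed CPM of 8 pan-myeloid genes. The groups separate without overlap for *Il1b* to *Il18*, *Mefv* to *Nlrp3* and *Il1b* to the myeloid reference.

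The other genes of the pathway came from 4 lists with 38 genes, of which 30 passed the filter on low counts. Of these 30, none passed the adjusted threshold in edgeR, 22 were lower in *Tet2*-KO mice at an unadjusted p under 0.05 and 1 was higher, against 12.2% and 10.8% of all tested genes, and their median log2 fold change was -0.72. The DESeq2 Wald test called 14 of the 38, all lower, against 3.38% of all genes it tested, and limma-voom 19, all lower, against 6.38%. Without *Tet2*-KO mouse 5 edgeR called 19, all lower, against 7.3% of all genes in that fit and 0 of the list with that mouse.

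Of the other sensors 6 of 10 were tested, and 5 had an unadjusted p under 0.05, all lower in *Tet2*-KO mice. *Nlrp1a*, of the NLRP1 family whose members sense foreign proteases, had a log2 fold change of -1.26 with a standard error of 0.32 (edgeR adjusted p = 0.110). *Zbp1*, the sensor of Z-form nucleic acids, had one of -1.27 with a standard error of 0.55 (edgeR adjusted p = 0.199) and ranged in *Tet2*-KO mice from 1.05 to 26.4 CPM. Without *Tet2*-KO mouse 5, the log2 difference in *Zbp1* was -1.93 and passed (edgeR adjusted p = 0.0204). *Naip5*, which binds flagellin for NLRC4, had one of -0.90 with a standard error of 0.39 (edgeR adjusted p = 0.199) and *Nlrp1b* one of -0.86 with a standard error of 0.28 (edgeR adjusted p = 0.129). The *Naip* genes and the *Nlrp1* genes are close copies, so uniquely mapped reads may undercount them.

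*Nlrp12*, a regulator and sensor of the NLR family, missed the filter with 84 reads over the WT mice and 31 over the *Tet2*-KO mice. WT mouse 6 and *Tet2*-KO mouse 5 had 7 reads each and *Tet2*-KO mouse 4 had 9, so the ranges of the reads overlapped. After scaling, *Nlrp12* lay at 0.555 to 1.40 CPM in WT mice and at 0.124 to 0.549 CPM in *Tet2*-KO mice, barely apart. With no filter on low counts it was called (log2 fold change -1.65, edgeR adjusted p = 0.0377), as was *Trem1*, the myeloid receptor that amplifies such responses (-2.33, edgeR adjusted p = 0.0487), against 0.106% of all genes called lower in that fit. The other genes that missed the filter were *Nlrp6*, *Nlrp10*, *Naip1*, *Gsdma*, *Gsdmc* and *Il18r1*, and *Gsdmc* had 0 reads in every library.

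Of the genes for activation and regulation 9 of 10 were tested, 4 being lower and 1 higher at an unadjusted p under 0.05. *P2rx7*, the ATP-gated channel whose opening lets potassium leave the cell, was at 35.3 ± 7.56 CPM in WT mice and 22.9 ± 6.52 CPM in *Tet2*-KO mice (SD, n = 6 per group). Its edgeR log2 fold change was -0.62 with an adjusted p of 0.123. For *Pstpip1*, which binds pyrin, the difference was -0.68 (edgeR adjusted p = 0.122), and the interferon-induced GTPases *Gbp2* and *Gbp5* had -0.86 and -0.60 (edgeR adjusted p = 0.150 and 0.157). *Panx1*, the channel that releases ATP, was the gene on the other side, at 15.1 ± 1.38 CPM in WT mice and 17.0 ± 1.37 CPM in *Tet2*-KO mice (SD, n = 6 per group). It differed by 0.16 on the log2 scale, and edgeR gave an adjusted p of 0.215. *Nek7*, which binds NLRP3, differed by -0.14 on that scale (edgeR adjusted p = 0.287).

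Of the other caspases, gasdermins and genes of membrane rupture 6 of 8 were tested and 5 were lower at an unadjusted p under 0.05. *Ninj1*, whose protein breaks the membrane at the end of pyroptosis, had a log2 fold change of -0.86 with a standard error of 0.26 (edgeR adjusted p = 0.124), and 5 of 6 *Tet2*-KO mice were lower than the lowest WT mouse. *Casp12* and *Casp8* had log2 fold changes of -0.78 and -0.76 (edgeR adjusted p = 0.150 and 0.159). *Gsdme*, another gasdermin, differed by 0.08 on that scale (edgeR adjusted p = 0.388).

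Of the genes of interleukin-1 and interleukin-18 signalling 9 of 10 were tested and 8 were lower at an unadjusted p under 0.05. *Il1rn*, the secreted antagonist of the interleukin-1 receptor, lay between 3.17 and 13.2 CPM in WT mice and between 0.0620 and 5.88 CPM in *Tet2*-KO mice, with a log2 fold change of -2.69 and a standard error of 0.68 (edgeR adjusted p = 0.115). Without *Tet2*-KO mouse 5 this was -3.75 and *Il1rn* was called (edgeR adjusted p = 0.00646). No other fit that left out 1 mouse called *Il1rn*. *Il1a*, the ligand that needs no caspase-1 for activity, had -1.10 (edgeR adjusted p = 0.116), the decoy receptor *Il1r2* -0.83 and the adaptor *Myd88* -0.81 (edgeR adjusted p = 0.110 for both). Ligand, antagonist, decoy receptor and adaptor thus had fold changes of one sign, and the co-receptor *Il1rap* was at 63.8 ± 3.38 CPM in WT mice and 65.9 ± 4.55 CPM in *Tet2*-KO mice (SD, n = 6 per group).

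**Figure D4:**
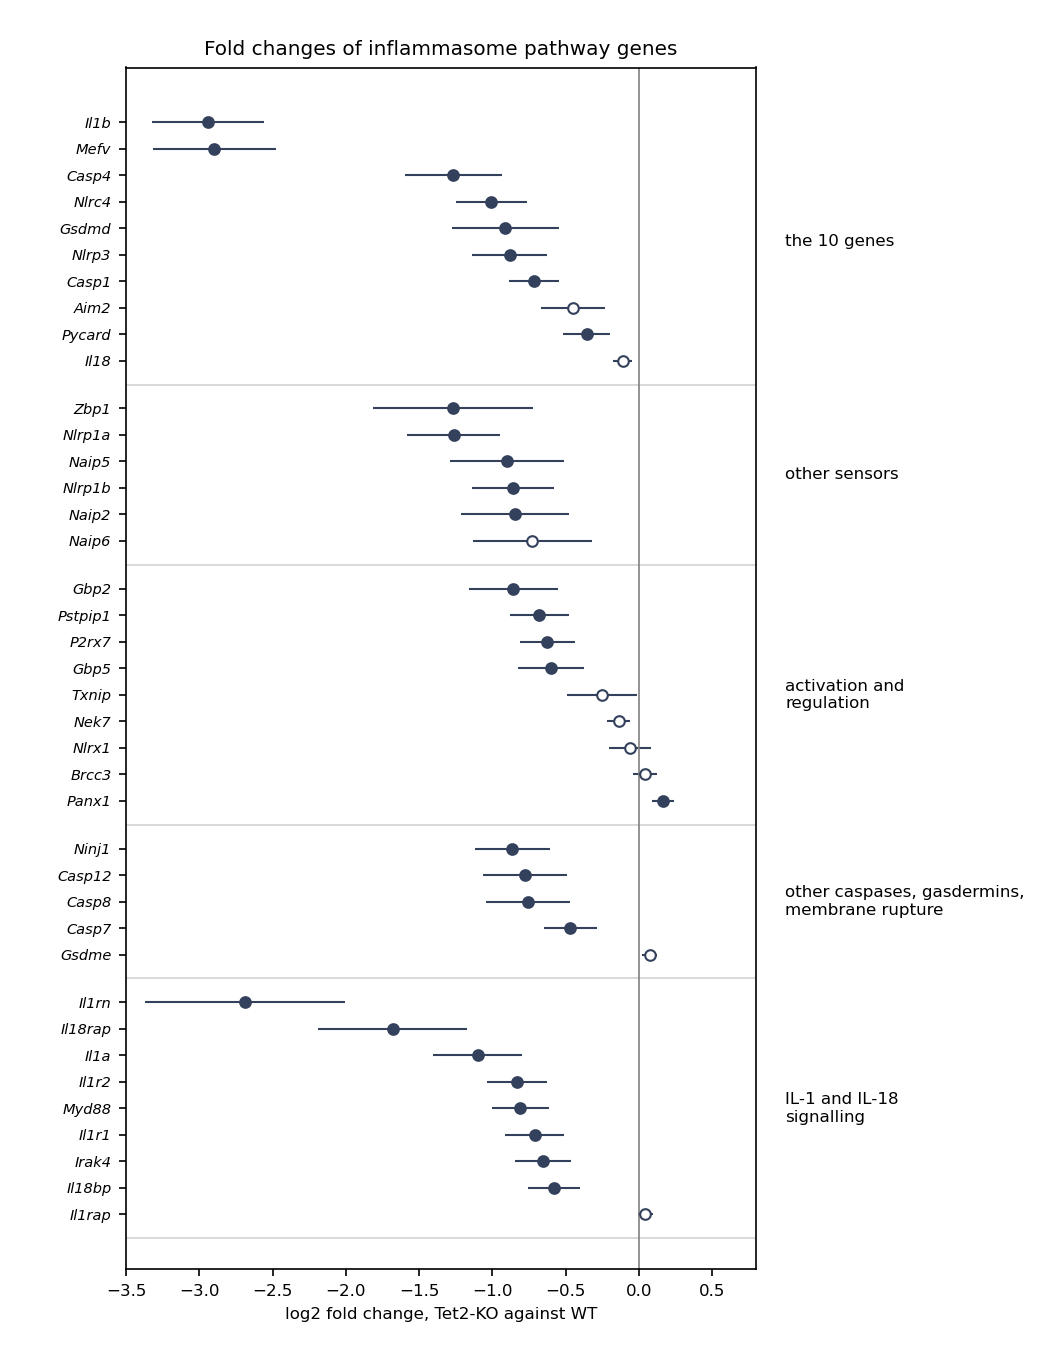
Log2 fold change (horizontal axis, *Tet2*-KO against WT) with standard error of the 10 genes and of the tested genes of the 4 pathway lists, apart from 1 that is not reported here, from edgeR over all 12 mice. Filled points had an unadjusted p under 0.05. Most filled points lie left of 0, *Il1rn* lies nearest to *Il1b* and *Mefv* among the pathway genes, and *Panx1* is the filled point right of 0.

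Marker genes of several cell types were set beside the members, and 0 of them passed the adjusted threshold in edgeR. The summed CPM of 8 pan-myeloid genes (*Ptprc*, *Itgam*, *Spi1*, *Tyrobp*, *Laptm5*, *Csf1r*, *Aif1* and *Fcer1g*) was 723–1363 in WT mice and 222–901 in *Tet2*-KO mice, with 6 of 8 lower at an unadjusted p under 0.05. Of 8 monocyte and macrophage markers 7 were lower at that level, with a median log2 fold change of -1.64 and sums of 67.4–129 CPM in WT mice and 14.1–85.9 CPM in *Tet2*-KO mice. The highest of the latter was *Tet2*-KO mouse 5 at 85.9 CPM, and the next mouse was at 46.0 CPM. Of 8 microglial markers 2 were lower, and *P2ry12*, *Tmem119* and *Siglech* had log2 fold changes of 0.05, -0.13 and -0.0034. The sum of the microglial markers was 599–1068 CPM in WT mice and 276–739 CPM in *Tet2*-KO mice.

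Of the 8 neutrophil markers only *Cxcr2* and *Csf3r* passed the filter. The defining markers *Ly6g* and *Elane* had at most 1 and 2 reads in any library. Summed over WT and over *Tet2*-KO mice, *Mpo* had 25 and 29 reads and *Retnlg* 46 and 47. *Camp* had 17 and 15 reads and *Ltf* 33 and 18. The tested *Cxcr2* and *Csf3r* were both lower at an unadjusted p under 0.05. Of 6 tested T cell markers 6 were lower at that level, with sums of 14.7–23.7 CPM in WT mice and 8.21–14.4 CPM in *Tet2*-KO mice, and of 8 neuronal markers 8 were higher, with sums of 3872–5459 and 5050–6574 CPM. None of 6 astrocyte and none of 6 oligodendrocyte markers had an unadjusted p under 0.05 in edgeR. Of 6 endothelial markers 2 were lower, and of 4 tested red blood cell markers 2 were higher. The part of these cells in the fold changes of the inflammasome genes was not tested. The ratios that follow compare levels within a library, and they cannot tell fewer cells of a type from less RNA per cell.

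Relative to the myeloid reference the members parted. In that sum *Laptm5* and *Csf1r* weighed most, with WT means of 274 and 269 CPM. Their log2 fold changes were -0.76 and -0.53, where the 8 reference genes ranged from -1.16 to -0.53. *Il1b* was at -7.47 ± 0.58 in WT mice and -9.30 ± 0.53 in *Tet2*-KO mice (log2 ratio, SD, n = 6 per group; exact permutation p = 0.00216, adjusted 0.00649), with no overlap. With a pseudocount of 0.5 CPM the difference was -1.32 instead of -1.83 and still passed (exact permutation p = 0.00433, adjusted 0.0130), but *Tet2*-KO mouse 1 then lay within the WT range. *Casp1* differed by 0.15 (exact permutation p = 0.543) and *Gsdmd* by -0.23 (exact permutation p = 0.139, adjusted 0.178). As a description, with no test, *Mefv* and *Casp4* also had no overlap on this ratio, being lower in 6 of 6 *Tet2*-KO mice, by -1.90 and -0.55, *Nlrp3* differed by -0.09, *Nlrc4* by -0.14, *Aim2* by 0.36, *Pycard* by 0.48 and *Il18* by 0.73. With a pseudocount of 0.5 CPM, tried on these descriptions after the values were seen, *Mefv* differed by -1.12 in 6 of 6 mice, *Casp4* by -0.35 in 5 of 6 and *Nlrc4* by 0.08, a change of sign.

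Relative to the 8 monocyte and macrophage markers, *Il1b* differed by -1.23 and *Mefv* by -1.30 on the log2 scale, and 5 and 6 of the 6 *Tet2*-KO mice were lower than the lowest WT mouse. On that scale the other 8 members differed by 0.05 for *Casp4* to 1.33 for *Il18*. With a pseudocount of 0.5 CPM *Il1b* and *Mefv* differed by -0.73 and -0.54, with 2 and 3 of the 6 *Tet2*-KO mice lower than the lowest WT mouse, so the size and the separation on this scale depended on the pseudocount. Which cells made the transcripts was not measured.

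**Figure D5:**
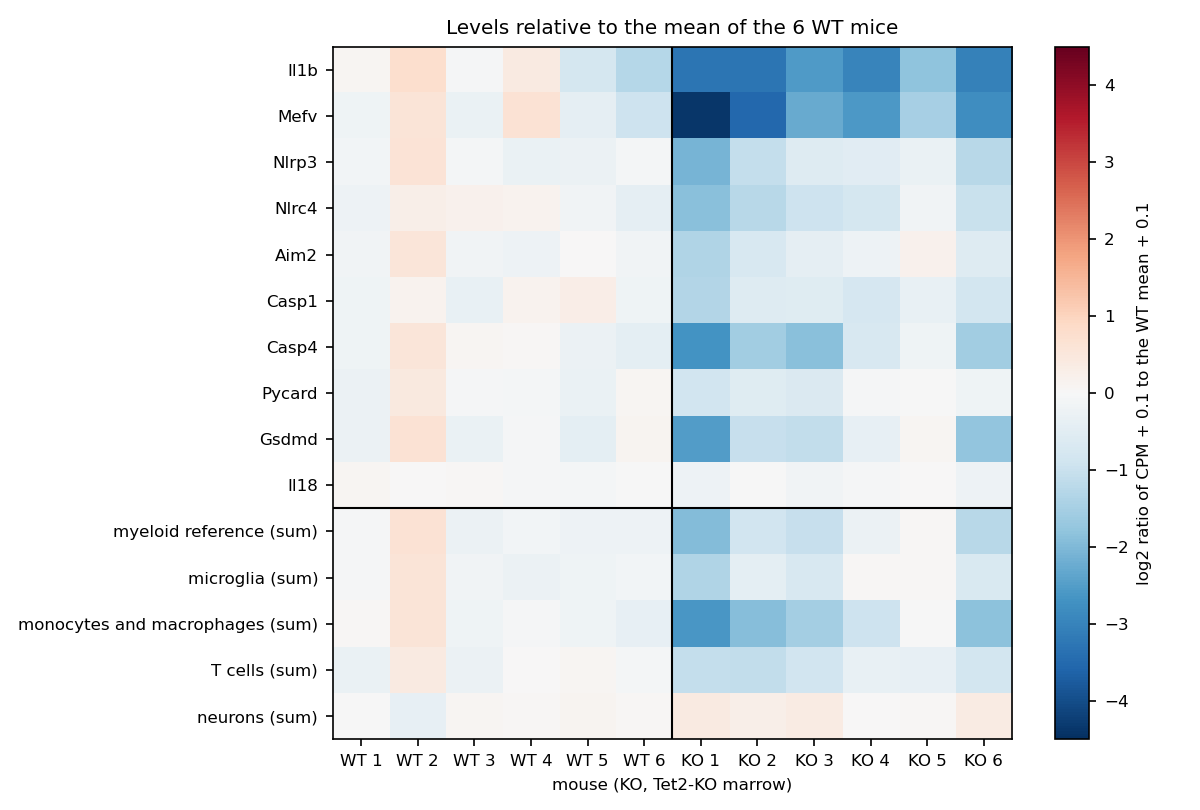
Log2 ratio of CPM + 0.1 to the mean of the 6 WT mice for the 10 genes (upper rows) and for the summed CPM of marker lists (lower rows) in each mouse (columns), blue where below the WT mean and red where above. *Tet2*-KO mouse 5 is near the WT mean for most genes and for the monocyte and macrophage sum, at 85.9 CPM, and stays blue for *Il1b* and *Mefv*, at 1.41 and 1.10 CPM. *Tet2*-KO mouse 1 is the darkest column of the upper rows.

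By mouse, *Tet2*-KO mice 1 and 3 were below every WT mouse in 10 of the 10 genes, mice 2 and 6 in 9, mouse 4 in 6 and mouse 5 in 3. The share of all tested genes below every WT mouse was not taken for each mouse. These counts therefore describe the mice and are no result about the 10 genes. The 3 genes of mouse 5 were *Il1b*, *Mefv* and *Nlrp3*. Its monocyte marker *Ly6c2*, at 11.1 CPM, lay in the WT range of the same gene, where the other *Tet2*-KO mice had 0.310 to 2.01 CPM.

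The genes whose pattern over the 12 libraries was most like that of a member were named by Pearson's r of log2 CPM, as a description; the libraries fall into 2 groups that differ in level, so a high r reflects the groups as well as the mice. For *Il1b* they were *S100a9* (r = 0.950), *Mmp11* (0.949) and *S100a8* (0.948). Within the WT group these were 0.939, 0.873 and 0.949. Within the *Tet2*-KO group, where *Il1b* had 7 to 18 reads per mouse, they were 0.580, 0.936 and 0.496. For *Casp1* they were *Mir17hg* (0.937), *2810025M15Rik* (0.936) and *Nod2* (0.932). Within the WT group these were 0.681, 0.889 and 0.506, and within the *Tet2*-KO group 0.893, 0.898 and 0.978. For *Gsdmd* they were *Tap1* (0.989), *Dhx58* (0.988) and *Sh3tc1* (0.987), with r of 0.951 to 0.992 within the WT group and 0.981 to 0.992 within the *Tet2*-KO group.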

How the data were processed

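Libraries were made by the authors from RNA depleted of ribosomal RNA. Read pairs went through Trimmomatic 0.36 and STAR 2.5.2b on mm10 (versions and build per the submitters' processing notes), and featureCounts of Subread 1.5.2 counted the unique reads in exons. The deposited values are raw counts per gene, without normalization. Of 49315 identifiers, 48970 had a symbol in GENCODE M21. Total counts were 12000261–15340787 in WT and 12625047–21049763 in *Tet2*-KO libraries; members with few reads carry wide counting error. No pair of libraries agreed within sampling noise (chi-square per degree of freedom 2.00–27.5), and each was 1 replicate.

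The deposited counts were then analysed in R 4.3.3 to give CPM and tests: filterByExpr, TMM and the robust quasi-likelihood F test of edgeR 4.0.16 on all 12 libraries without covariates, with Benjamini-Hochberg adjustment over 20290 genes and a threshold of 0.05. A standard error is the size of the log2 fold change over √F. Correlations used log2 CPM with a prior count of 2. Alternatives were the Wald test of DESeq2 1.42.0 and limma 3.58.1 (voom, quality weights), scaling by upper quartiles or by DESeq2 size factors, a filter of at least 10 counts in every library or none, a block by replicate number, a pseudocount of 0.5 CPM and leaving out libraries. Ratios used a pseudocount of 0.1 CPM. The tests were tested on simulated data. Overlaps of exons came from GENCODE M21 and sequences from RefSeq (GRCm38.p6).

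The members, gene lists, ratios and tests were chosen with earlier results of these data known. Genes named from the 4 pathway lists are up to 4 per list and direction with the smallest p under 0.05; *Nlrp12*, *Trem1*, *Nek7*, *Gsdme* and *Il1rap* were added after their values were seen. The single values of 1 gene are not reported here.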

Additional observations from a re-analysis of the deposited data

Results flagged for a closer look

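Of 38 groups of 6 values examined with Dixon's test (10 genes and 9 ratios in each group), 3 held a mouse far from the others, and chance gives about 1 in 20. WT mouse 2 was far above the other WT mice for *Nlrp3*, at 10.2 CPM with the next mouse at 6.27 CPM, and for *Aim2*, at 15.9 CPM with the next at 11.1 CPM. WT mouse 5 was far below the other WT mice for the log2 ratio of *Nlrp3* to *Aim2*, at -1.02 with the next at -0.76. Without WT mouse 2 the log2 fold change of *Nlrp3* was -0.72 and that of *Aim2* -0.31, and without WT mouse 5 the difference of their log2 ratio was -0.51.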

How the results depend on the processing

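None of the 10 genes, the 17 pathway genes chosen by p or the 9 ratios reversed direction under any alternative run. Over all genes 5 were called, against 902 by DESeq2, 1863 by limma-voom, 44 with no filter, 0 with at least 10 counts in every library, 0 with the replicate block, 0–2257 with 1 library left out and 1554 without WT mouse 2 and *Tet2*-KO mouse 5 together, an alternative chosen after the values were seen. Of the members 2 were called, against 6, 7, 0 (10 counts, which leaves out *Il1b*, *Mefv* and *Nlrc4*), 0 (block), 0–7 (1 library left out) and 6 (both mice). With at least 10 counts 5 of the members kept had an unadjusted p under 0.05. Of the other pathway genes 0 were called, against 14, 19, 2 (no filter), 0–19 and 14. The *Casp1* to *Casp4* difference was 0.56–0.86 with 1 library left out.

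Same-numbered libraries correlated at -0.169 to 0.230 in their deviations, 1 of 6 best with its own number, so they share only a number. In the replicate block, the adjusted p of the *Il1b* to *Il18* (-2.56), *Nlrp3* to *Aim2* (-0.45), *Mefv* to *Nlrp3* (-1.81) and *Il1b* to myeloid (-1.83) differences was 0.0703, where the smallest p that sign flips allow is 0.0312; *Il1b* and *Mefv* had adjusted p = 0.168 with log2 fold changes of -2.91 for both. Without both mice the *Nlrp3* to *Aim2* difference was -0.42 (adjusted exact permutation p = 0.0536). At an unadjusted p under 0.05, 2477 genes were lower and 2201 higher; upper quartile scaling gave 2129 and 3009. All members passed the filter, which a gene can pass through the reads of a single group. *Il1b* had 7 to 18 reads in *Tet2*-KO mice against 26 to 121 in WT mice, and *Mefv* 1 to 14 against 21 to 80. Low values in *Tet2*-KO mice were therefore compared, and a filter of at least 10 counts in every library keeps neither gene. Members with few reads in *Tet2*-KO mice, 1 to 14 for *Mefv*, limit how well a fold can be told.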
